A study of Homo sapiens with 24 samples.

Results

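The nuclear-encoded subunits of the mitochondrial respiratory chain were followed in the human hepatocellular carcinoma line HepG2. Members were the rows of the deposited count table whose symbols carry the names of subunits of complexes I to V and that had at least 10 counts in 2 or more libraries. Of 34618 rows, 84 had such a name, 10 of these fell under the count limit and 74 were kept: 37 named as complex I, 4 as complex II, 8 as complex III, 9 as complex IV and 16 as complex V. All 74 also passed the low-count filter of the test, which left 14887 genes. The 10 rows left out were ATP5L2, COX6A2, COX6B2, COX7A1, COX7B2, COX8C and second, nearly empty rows of NDUFA7, NDUFB8, SDHD and UQCR11, with at most 6 counts in any library. The classes follow the names: NDUFA4, named as complex I, is now placed in complex IV, and ATP5S is now regarded as a factor of complex V rather than a subunit.

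The cells came from 3 puromycin-selected lines that stably carried a lentiviral short hairpin RNA: a non-specific control hairpin (shCtrl), a hairpin against SETD2, which writes trimethylation of lysine 36 on histone H3 (shSETD2), or a hairpin against METTL14, a subunit of the enzyme that writes N6-methyladenosine (m6A) on RNA (shMETTL14). Each line was sampled untreated (0 h) and after 1, 3 and 6 h of actinomycin D at 5 ug/mL, a blocker of RNA synthesis. Every line and time has 2 libraries, 24 in all. The design asks which RNAs differ between the lines and how they change once synthesis is stopped. The series' text calls the replicates biological but does not say whether they were separate cultures. The p-values therefore measure the spread between the libraries at hand, which may be technical.

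Complex I takes electrons from NADH and complex II takes them from succinate. Both pass them through ubiquinone to complex III and on through cytochrome c to complex IV, which reduces oxygen. Complexes I, III and IV pump protons across the inner membrane, and complex V, the ATP synthase, uses the gradient to make ATP. Mitochondrial DNA encodes the core of the membrane arm of complex I, cytochrome b of complex III, the catalytic core of complex IV and part of the membrane sector of complex V, so all complexes except II are built from products of both genomes, and hepatocytes are rich in them. NRF1 (nuclear respiratory factor 1), GABPA and YY1 are transcription factors known for binding the promoters of such nuclear genes.

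Complex II is the complex whose subunits are all nuclear-encoded, and its promoters are shown because every one that could be matched held the core of the NRF1 site, TGCGCA. COX5B is shown because it is a further member with a single start and 2 different motifs. The stretches are from RefSeq on GRCh38.p14 and run 5′ to 3′ on the strand of the gene, before the annotated start. Capitals mark TGCGCA and, on either strand, CCGGAAGT, the ETS motif bound by GABPA. They are SDHA at chr5:218138-218319 on the plus strand, SDHB at chr1:17054190-17054225 on the minus strand, SDHD at chr11:112086747-112086817 on the plus strand and COX5B at chr2:97645914-97646047 on the plus strand.
SDHA: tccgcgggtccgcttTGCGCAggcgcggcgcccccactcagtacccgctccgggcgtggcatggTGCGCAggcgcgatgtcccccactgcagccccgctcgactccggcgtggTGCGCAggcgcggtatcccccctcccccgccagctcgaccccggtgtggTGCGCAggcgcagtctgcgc
SDHB: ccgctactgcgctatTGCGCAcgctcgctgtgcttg
SDHD: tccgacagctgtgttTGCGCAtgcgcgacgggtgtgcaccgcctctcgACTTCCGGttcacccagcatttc
COX5B: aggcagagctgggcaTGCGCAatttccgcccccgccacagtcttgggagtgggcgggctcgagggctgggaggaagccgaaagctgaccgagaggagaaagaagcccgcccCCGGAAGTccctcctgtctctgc

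SDHA held TGCGCA 4 times, 167, 118, 69 and 20 bases before its start. In windows from 250 bases before to 50 bases after the start, found for 61 of the 74 members, TGCGCA was present for 20 members (32.8%) and for 12.7% of the 15842 protein-coding genes in the RefSeq table. It was held by 3 of 3 complex II, 10 of 32 complex I, 2 of 7 complex III, 3 of 8 complex IV and 2 of 11 complex V windows. CCGGAAGT was present for 11 members (18.03%) against 6.97% of all, and AAGATGGC, the YY1 motif, for 12 members (19.7%) against 4.66%. At least 1 of the 3 motifs, searched on both strands, was present for 32 members (52.5%) and for 21.7% of all genes. The background held every protein-coding gene with a window, expressed here or not, while the members had passed a count limit, so the 2 shares are not strictly alike. A match is a run of letters and does not show that the factor binds there.

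The members' mRNAs were short. In GENCODE v29 annotation, in which all 74 were found, their median coding length was 460.5 bases against 1425 over the 12607 tested genes with a coding transcript, and their median 3′ UTR was 199 against 945 bases. The pentamer GGACT, a frequent form of the sequence on which m6A is written, was absent from the transcripts of 24 members (32.4%) and of 8.79% of tested genes. Per kilobase its median was 0.853 in members and 0.949 in tested genes. Across the 74 members the shCtrl slope described below and transcript length had a Spearman rho of -0.29, and across the tested genes one of -0.25. With 3′ UTR length the rho was -0.05 across members and -0.22 across tested genes. With the number of GGACT it was -0.17 across both. The other lines differed from this. With GGACT the rho across members was -0.014 in shSETD2 and -0.051 in shMETTL14, and across tested genes -0.17 in each. With 3′ UTR length it was -0.21 and 0.0006 across members, and -0.28 and -0.22 across tested genes. These are descriptions without a test, since genes of the same libraries are not replicates.

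Each library held 18.3 to 31.4 M counts. SETD2 stood at 66.4% of shCtrl in untreated shSETD2 cells and at 46.0% after 6 h, and METTL14 at 48.8% of shCtrl in untreated shMETTL14 cells. All 8 hepatocyte markers were detected, with summed levels from 51518 to 182990 CPM (counts per M, TMM scaled), while PTPRC, CD3E, DCN and KDR had no count in any library. Summed fibroblast markers reached 13.2 to 59.8 CPM, blood markers 0.63 to 3.63 CPM and endothelial markers 0.28 to 2.84 CPM. The summed hepatocyte markers, carried mostly by APOB, AFP and ALB, were higher at 6 h and in shSETD2 (means of 51610 CPM in shCtrl, 99516 in shSETD2 and 58953 in shMETTL14 at 0 h, and 97895 in shCtrl at 6 h). HNF4A, one of the 8, was lower at 6 h in shCtrl (180.7 to 133.8 CPM) and in shMETTL14 (167.0 to 125.0 CPM). Their part in the results below was not tested.

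The members were expressed well above a typical gene, and complexes IV and III had the highest medians. Levels between genes are given in the deposited RPKM (reads per kilobase of exon and M counts). In untreated shCtrl cells the median member had 19.4 RPKM, against 4.15 for all genes tested. By complex the medians were 14.8 for I, 14.1 for II, 28.96 for III, 32.2 for IV and 21.6 for V. ATP5B, the catalytic beta subunit of the ATP synthase, was the most abundant, with 258 and 261 RPKM in the 2 untreated shCtrl libraries. NDUFS5, an accessory subunit of complex I, had 137 and 155 RPKM, UQCRC2, a core protein of complex III, had 79.8 and 82.4, and COX6B1, a subunit on the intermembrane face of complex IV, had 75.2 and 77.6. SDHB, the iron-sulphur protein, led complex II with 16.1 and 17.4 RPKM. At the other end stood NDUFV2, a core iron-sulphur subunit, with 0.85 and 0.83 RPKM, and NDUFA7 with 0.32 and 0.43. Both lie among overlapping rows on the same strand (13 to 70 and 4 to 29 counts per library), as do NDUFA13 and NDUFA11. Counts of such genes can be split or dropped by the counting, so their levels are uncertain. In all, 18 members overlapped another row on the same strand and 21 only on the opposite strand. Rows named as pseudogenes held 41.1% as many counts as COX6A1 and 20.1% as many as ATP5E.

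After transcription was blocked, the members' share of the RNA went up together in all 3 lines. In shCtrl they took 0.511% and 0.532% of all counts at 0 h and 0.730% and 0.722% at 6 h. In shSETD2 the shares were 0.491% and 0.492% at 0 h and 0.705% and 0.644% at 6 h, and in shMETTL14 0.516% and 0.504% against 0.700% and 0.674%. The 6 h libraries lay above the 0 h libraries in each line. Over the same hours the mitochondrial transcripts went from 6.995% and 6.887% to 4.64% and 4.56% of counts in shCtrl. No spike-in rows are in the table, so each value is a share of the library's RNA: a gain of 1 mRNA and a loss of the rest cannot be told apart, nor, in bulk samples, can fewer cells and less RNA per cell.

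Change under the drug was tested as a slope, fitted by least squares to the means at the 4 times (in log2 per h, edgeR's quasi-likelihood test with Benjamini-Hochberg adjustment at 0.05 over all genes tested). In shCtrl 71 of 74 members rose and none fell, against 37.8% of tested genes rising, 33.2% falling and 71.1% changing either way. The members' median slope was 0.145 log2 per h, against 0.013 over all genes, and 88.3% of tested genes lay below it. In shSETD2 68 rose and 1 fell (background 34.2% rising, 36.2% falling, 70.4% either), with a median slope of 0.135. In shMETTL14 69 rose and 1 fell (background 38.2% rising, 34.8% falling, 73.1% either), with a median of 0.152. Of the 56 members without a row overlapping on the same strand, 54, 53 and 54 rose in shCtrl, shSETD2 and shMETTL14. Scaled by library size alone, the median shCtrl slope was 0.086 for members and -0.045 for all genes, and 62 members rose and 2 fell. For this and the other settings tried below, the share of all tested genes called is not given. Such counts alone do not set the members apart from all genes.

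**Figure D1:**
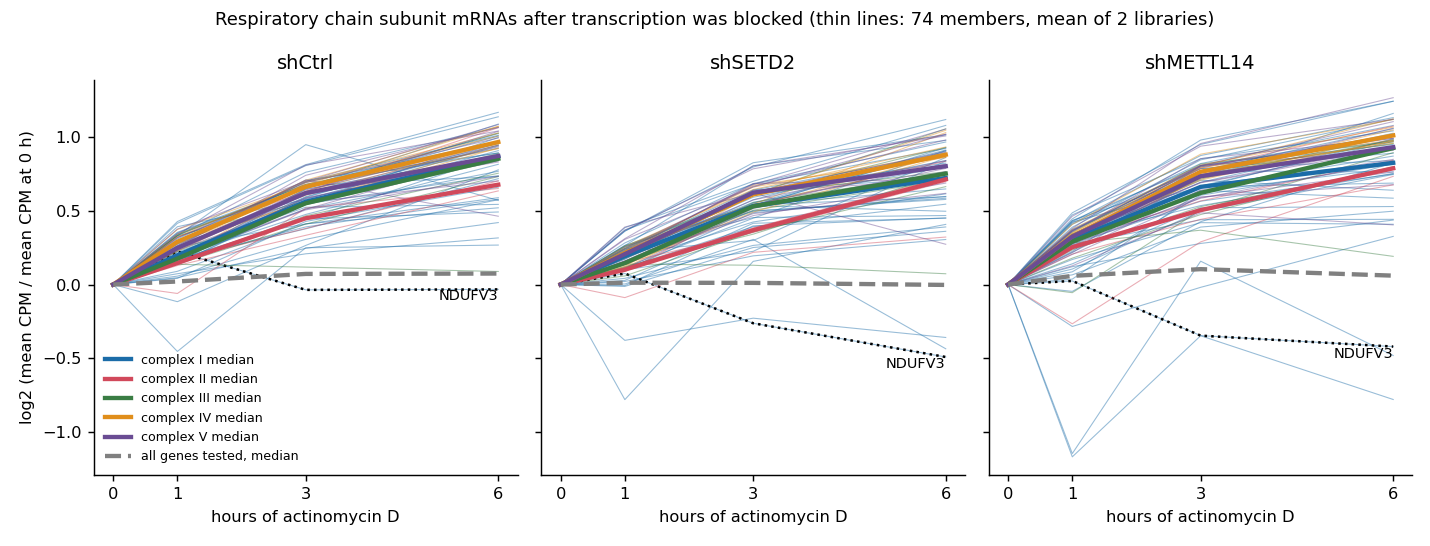
log2 ratio of mean CPM to its 0 h mean (y axis) against hours of actinomycin D (x axis) in the 3 lines; thin lines are the 74 members coloured by complex, thick lines the median of each complex, the dashed grey line the median of all genes tested, the dotted line NDUFV3, and each point is the mean of 2 libraries. The complex medians climb at every step while the median gene stays near its start, and NDUFV3 does not climb by 6 h.

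The rise built up over the time course. The median member stood at 1.17 times its untreated level after 1 h in shCtrl, 1.51 times after 3 h and 1.83 times after 6 h, when the median gene stood at 1.05 times. At 6 h the median member reached 1.73 times in shSETD2 and 1.91 times in shMETTL14. Both 6 h libraries lay above both 0 h libraries for 71 members in shCtrl, 69 in shSETD2 and 71 in shMETTL14. The same held for 44.2%, 39.1% and 44.5% of tested genes.

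Complex IV had the steepest median slope in shCtrl, 0.160 log2 per h, and all 9 of its members rose in each line. Complex V followed with 0.145 (16 of 16 rose), then complex I with 0.143 (35 of 37), complex III with 0.136 (7 of 8) and complex II with 0.119 (4 of 4). Complex IV was also highest in shSETD2 (0.147) and shMETTL14 (0.162). In shSETD2 34 of 37 complex I, 3 of 4 complex II, 7 of 8 complex III and 15 of 16 complex V members rose. In shMETTL14 the counts were 33 of 37, 4 of 4, 7 of 8 and 16 of 16. Genes of a complex are not replicates, so these medians are a description without a test.

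The shift toward complex IV could also be read within the members, where the scaling of the libraries cancels out. Complex IV took 9.61% and 9.86% of the members' counts in the untreated shCtrl libraries and 10.95% and 10.80% after 6 h. The shares went from 9.56% and 9.55% to 10.7% and 10.6% in shSETD2, and from 9.75% and 9.40% to 10.7% and 10.6% in shMETTL14. The complex I share moved the other way, from 31.1% and 31.2% to 30.2% and 30.0% in shCtrl, from 31.5% and 31.7% to 29.4% and 29.8% in shSETD2, and from 31.9% and 32.4% to 30.0% and 30.2% in shMETTL14. For both complexes the 0 h and 6 h libraries did not overlap in any line. The complex V share was also higher at 6 h without overlap in each line. Its 6 h mean was 1.02, 1.02 and 1.03 times the 0 h mean in shCtrl, shSETD2 and shMETTL14, against 1.12, 1.11 and 1.11 for complex IV. The complex II share was lower without overlap in shCtrl and shSETD2, and that of complex III in shCtrl. In the remaining lines these 2 complexes overlapped. These shares are weighted by counts. NDUFS1, which had the most counts in complex I, had a shCtrl slope of 0.073 log2 per h. The complex I median was 0.143 and that of all members 0.145. The lower complex I share therefore need not hold for a typical complex I gene, and the share without NDUFS1 is not given here. With 2 libraries a group an exact test of such a share cannot pass 0.05.

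**Figure D2:**
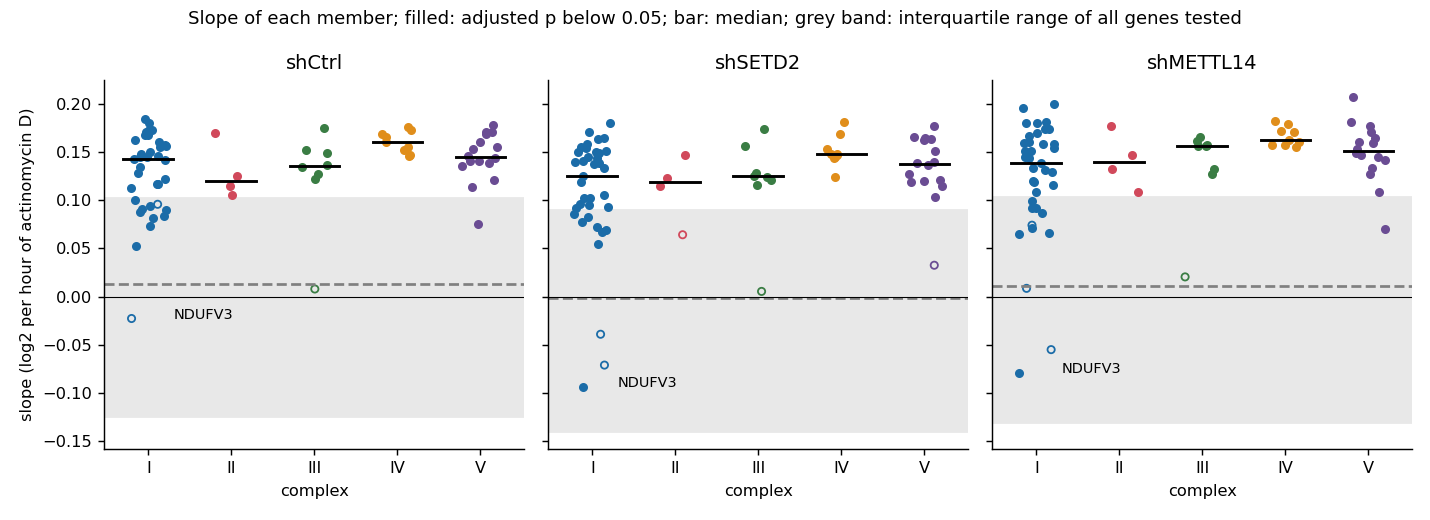
Slope of each member (y axis, log2 per hour of actinomycin D) by complex (x axis) in the 3 lines; filled points passed the adjusted p of 0.05, bars are medians, the grey band spans the interquartile range of all 14887 genes and the dashed line their median. Most members lie above the band, with complex IV packed between 0.145 and 0.175 in shCtrl, and NDUFV3 lies lowest in each panel.

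Among complex I core subunits, NDUFV1, which binds the flavin that accepts electrons from NADH, had 49.7 and 49.9 CPM in untreated shCtrl cells and 110 and 99.1 CPM after 6 h. Its slope was 0.173 ± 0.013 log2 per h (SE; edgeR adjusted p = 6.4e-11). NDUFS1, the largest iron-sulphur subunit, went from 253 and 249 to 336 and 336 CPM, a slope of 0.073 ± 0.006. The accessory subunits NDUFA9 and NDUFB8 had slopes of 0.091 ± 0.018 and 0.167 ± 0.014. NDUFB3, an accessory subunit of the membrane arm, had the steepest slope of any member in shCtrl, 0.184 ± 0.012, with 18.7 and 20.6 CPM at 0 h and 45.7 and 42.7 CPM at 6 h. NDUFS5 followed with 0.180 ± 0.010, from 65.8 and 73.9 to 162 and 145 CPM. The 6 h libraries of these genes all lay above the 0 h libraries.

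In complex II, SDHA and SDHB rose by less than the median member. SDHA, the flavoprotein that oxidises succinate, went from 107 and 107 CPM to 168 and 166 CPM in shCtrl, a slope of 0.105 ± 0.008. SDHB had a slope of 0.114 ± 0.010. SDHC, one of the membrane anchors, had 0.169 ± 0.014. SDHD, the other anchor, varied between replicates: at 6 h it had 21.7 and 29.8 CPM in shCtrl and 18.6 and 36.3 CPM in shSETD2, and its slope did not pass the test in shSETD2 (0.064 ± 0.047).

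In complex III the core proteins UQCRC1 and UQCRC2 had slopes of 0.149 ± 0.013 and 0.122 ± 0.006 in shCtrl, and UQCRH, the hinge protein next to cytochrome c1, 0.175 ± 0.015. UQCRC2 went from 348 and 358 CPM to 584 and 590 CPM. UQCRFS1, the Rieske iron-sulphur protein, was the exception. It had 34.1 and 37.0 CPM at 0 h and 39.0 and 36.7 CPM at 6 h in shCtrl, so its libraries overlapped, and its slope did not pass the test in any line (0.008 ± 0.011 in shCtrl, 0.005 ± 0.011 in shSETD2, 0.020 ± 0.011 in shMETTL14).

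All complex IV members rose, within a narrow band in shCtrl. The slopes there ran from 0.145 for COX5A, a subunit on the matrix side, to 0.175 for COX6C. COX5B, the zinc-binding matrix subunit, went from 66.2 and 70.2 CPM to 134 and 130 CPM. COX6B1 went from 61.5 and 63.3 CPM to 132 and 123 CPM. COX6A1, COX7A2 and COX8A, small subunits around the catalytic core, had slopes of 0.155 ± 0.010, 0.160 ± 0.009 and 0.173 ± 0.015. COX8A had the steepest slope of any member in shSETD2, 0.181 ± 0.015.

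In complex V the catalytic subunits ATP5A1 and ATP5B rose by 0.121 ± 0.007 and 0.141 ± 0.008 log2 per h in shCtrl. ATP5B went from 513 and 516 CPM to 950 and 914 CPM. ATP5C1, the rotating gamma subunit, had a slope of 0.114 ± 0.008, and ATP5O, the link between head and peripheral stalk, 0.144 ± 0.011. ATP5G1, ATP5G2 and ATP5G3 encode the same mature subunit c of the membrane ring, and their slopes were 0.178 ± 0.017, 0.153 ± 0.013 and 0.140 ± 0.007. ATP5E, the epsilon subunit of the central stalk, had the steepest slope of any member in shMETTL14, 0.207 ± 0.013, from 120 and 114 CPM to 291 and 273 CPM.

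NDUFV3, an accessory subunit of the NADH-oxidising module of complex I, was the only member with a called fall (gene ENSG00000160194, GRCh37 chromosome 21, 44299754 to 44333414, plus strand, with no overlapping row). In shCtrl it had 36.3 and 40.04 CPM at 0 h, 44.8 and 44.4 at 1 h, 36.9 and 37.6 at 3 h, and 36.2 and 38.5 at 6 h. In shSETD2 it had 40.3 and 38.7 CPM at 0 h and 29.6 and 26.5 CPM at 6 h, a slope of -0.093 ± 0.013 (adjusted p = 8.9e-07). In shMETTL14 it had 36.2 and 36.5 CPM at 0 h and 30.1 and 24.2 CPM at 6 h, a slope of -0.079 ± 0.013 (adjusted p = 7.0e-06). The 6 h libraries lay below the 0 h libraries in both knockdown lines and overlapped them in shCtrl, where the slope of -0.023 ± 0.012 did not pass the test. The call held in both knockdown lines under all 11 other settings tried. NDUFA7 and NDUFV2, which had few counts, also had both 6 h libraries below both 0 h libraries in shMETTL14. Their 6 h means there were 0.72 and 0.58 times the 0 h means, and their slopes were not called.

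The authors' deposited table of half-lives lists 7772 genes and, of the 74 members, 3. For NDUFV3 the authors' deposited table gives 10.98 h in shCtrl, 4.52 h in shSETD2 and 4.63 h in shMETTL14. For UQCRFS1 the authors' deposited table gives 15.3, 8.07 and 9.40 h. The medians of the authors' deposited table are 6.02, 4.13 and 4.31 h. NDUFA7 is listed in the authors' deposited table at 16789 h in shCtrl, but 2 rows carry that symbol. These 3 are also the 3 members whose slope was not called in shCtrl.

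**Figure D3:**
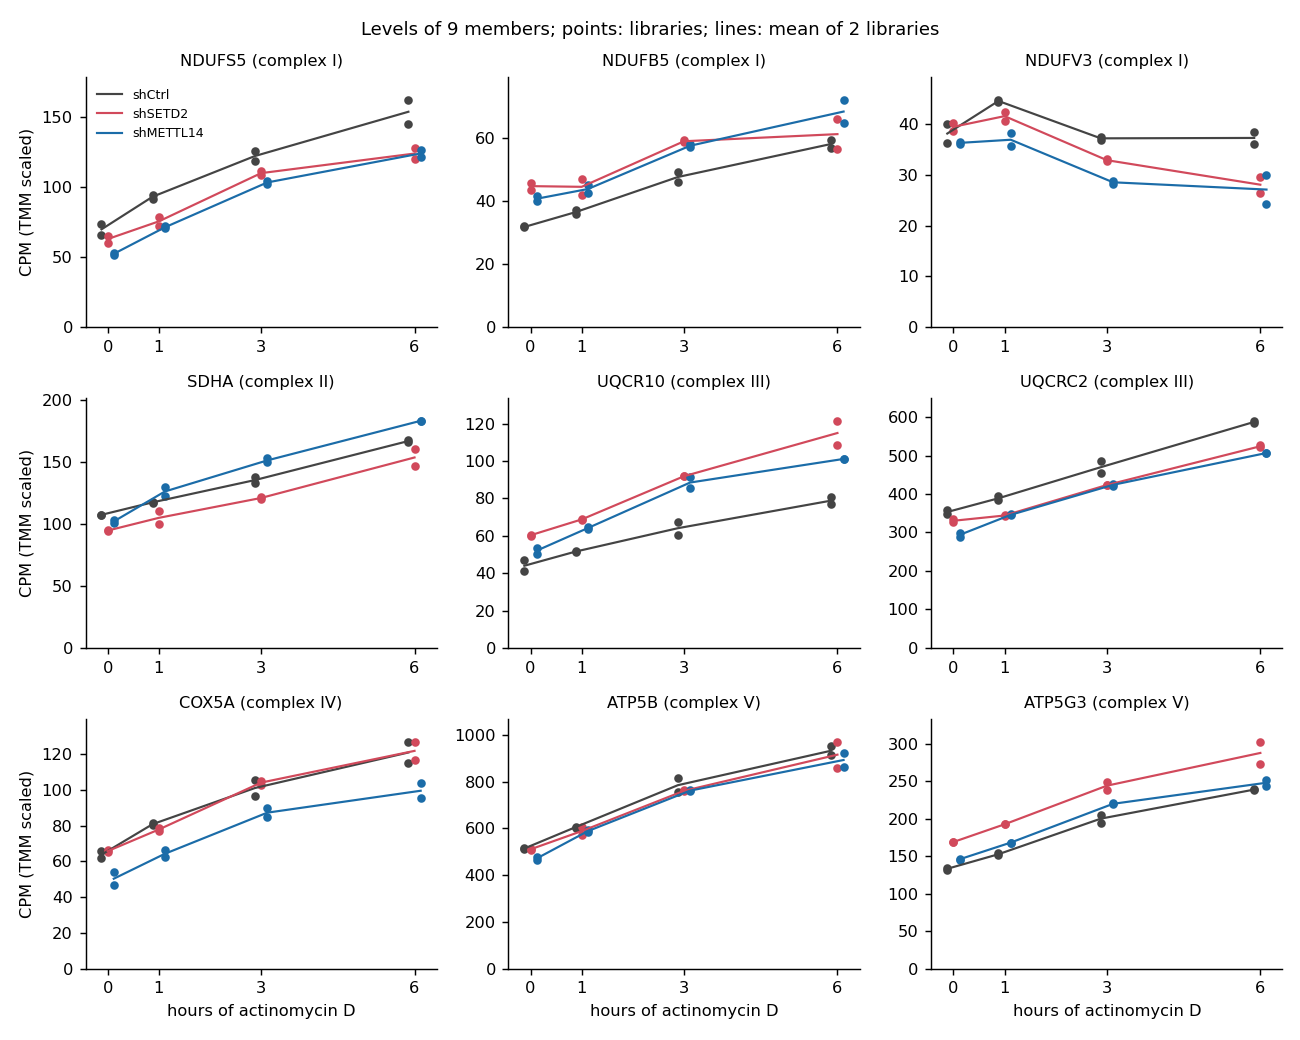
TMM-scaled CPM (y axis, from 0) of 9 members against hours of actinomycin D (x axis); points are single libraries, shifted slightly by line, and lines join the means of 2 libraries for shCtrl, shSETD2 and shMETTL14. All but NDUFV3 climb in each line, and NDUFV3 ends lower in the knockdown lines than in shCtrl.

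Few members had a slope that was called different between the lines. Of tested genes, 6.45% had a lower slope in shSETD2 than in shCtrl, 1.49% a higher one and 7.94% either. The members were near this background, with 5 of 74 (6.76%) lower and none higher. They were NDUFV3 (-0.071 ± 0.018), NDUFB3 (-0.065 ± 0.017), NDUFB5 (-0.059 ± 0.016), NDUFA12 (-0.049 ± 0.015) and ATP5H, a peripheral stalk subunit named after its value was seen (-0.048 ± 0.012), with edgeR adjusted p from 0.014 to 0.040. None of the 5 was called under any of the other 3 scalings (RLE, upper quartile, library size), which called 0 members each. The count was 19 (8 higher, 11 lower) without shSETD2 6 h replicate 2 and 1 without shCtrl 6 h replicate 2. Without shCtrl 0 h replicate 1 or 2 it was 3 or 2, all higher. It was 2 without shSETD2 0 h replicate 1, and 3 without shCtrl 1 h replicate 1, shCtrl 6 h replicate 1, or, in shSETD2, 0 h replicate 2, 1 h replicate 2 or 6 h replicate 1.

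For shMETTL14 against shCtrl, edgeR called 0 of 74 slope differences, against 5.21% of tested genes. At an unadjusted p under 0.05 there were 4 (1 higher, 3 lower), DESeq2 called 0 and limma 2. The differences ran from -0.14 for NDUFV2 to 0.05 log2 per h, with a median SE of 0.016. The count reached 13, all higher, when the fit held the compared groups alone, for which the share of all tested genes is not given here. It was 6 without shCtrl 0 h replicate 1, 4 without shMETTL14 0 h replicate 1, 2 without replicate 2 of either of those groups, and 1 without shMETTL14 6 h replicate 1. A missed threshold does not show that the slopes were equal.

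Before the drug, the SETD2 hairpin line differed from shCtrl in 20 of 74 members, 17 higher and 3 lower, against 21.6% of tested genes higher, 18.9% lower and 40.6% either. The share of members called higher was thus near the background. The median member differed by 0.06 log2. The higher members were 9 of complex I, 2 of III and 6 of V, and the lower ones 2 of I and SDHA of II, while no complex IV member was called. Under library-size scaling, which moves the median of all genes from 0.02 to -0.14, 5 were higher and 16 lower. With RLE the split was 10 and 9, and with the upper quartile 10 and 7. The count was 13 without shSETD2 0 h replicate 2, and without shCtrl 0 h replicate 1 the split was 5 higher and 9 lower.

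The members called in 1 direction under all 4 scalings, a list drawn after their values were seen like those given below, were 5 higher (NDUFB5, UQCR10, NDUFA6, ATP5G3, NDUFA4) and 3 lower (NDUFV2, NDUFA13, SDHA). NDUFB5, an accessory subunit of the membrane arm (GRCh37 chromosome 3, 179322478 to 179345435), had 31.9 and 31.6 CPM in shCtrl and 43.6 and 45.8 CPM in shSETD2, a log2 difference of 0.49 ± 0.08 (adjusted p = 1.5e-05). UQCR10, a small subunit of complex III (chromosome 22, 30163358 to 30166402), had 41.1 and 46.8 against 59.9 and 60.7 CPM, a difference of 0.45 ± 0.07. ATP5G3 (chromosome 2, 176040986 to 176049335) had 132 and 134 against 169 and 168 CPM, a difference of 0.34 ± 0.05, while ATP5G1 and ATP5G2 were not called (0.06 ± 0.12 and -0.06 ± 0.09). SDHA (chromosome 5, 218356 to 256815) had 107 and 107 against 95.2 and 94.0 CPM, a difference of -0.18 ± 0.05. In each of these 4 genes both libraries of one line lay apart from both of the other. NDUFV2 (-0.96 ± 0.24) and NDUFA13 (-0.55 ± 0.15) rest on few counts among overlapping rows.

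The METTL14 hairpin line differed from shCtrl in 25 members, 6 higher and 19 lower, against 23.1% of tested genes higher, 25.1% lower and 48.1% either. The median member differed by -0.08 log2. The 19 lower members (25.7%) were thus near the background as well. The lower ones were 8 of complex I, 1 of II, 3 of III, 2 of IV and 5 of V. The split was 4 higher and 31 lower with RLE, 8 and 9 with the upper quartile, and 7 and 9 with library size. The count was 38 without shCtrl 0 h replicate 1.

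Under all 4 scalings 4 members were higher (NDUFB5, NDUFA8, NDUFB3, UQCR10) and 9 lower (NDUFS5, COX5A, UQCRC2, UQCRB, COX6A1, NDUFB10, ATP5F1, ATP5J2, NDUFA11). NDUFS5 had 65.8 and 73.9 CPM in shCtrl and 53.2 and 51.5 CPM in shMETTL14, a log2 difference of -0.42 ± 0.07 (adjusted p = 1.8e-05). COX5A had 61.7 and 65.7 against 53.8 and 46.8 CPM, a difference of -0.34 ± 0.07. UQCRC2 had 348 and 358 against 300 and 288 CPM, a difference of -0.27 ± 0.04. In all 3 the libraries of the lines did not overlap, but only 25 of the 74 members did overlap at 0 h. The share over all tested genes is not given here either. NDUFA8, a subunit on the intermembrane side of complex I, was higher, with 26.0 and 25.7 against 32.6 and 30.9 CPM (0.30 ± 0.06). NDUFB5 had 39.8 and 41.6 CPM against 31.9 and 31.6 in shCtrl (0.36 ± 0.08). Of the 6 higher calls, 0 were kept under every one of the 4 fits that left out an untreated library, against 17 of the 19 lower calls.

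**Figure D4:**
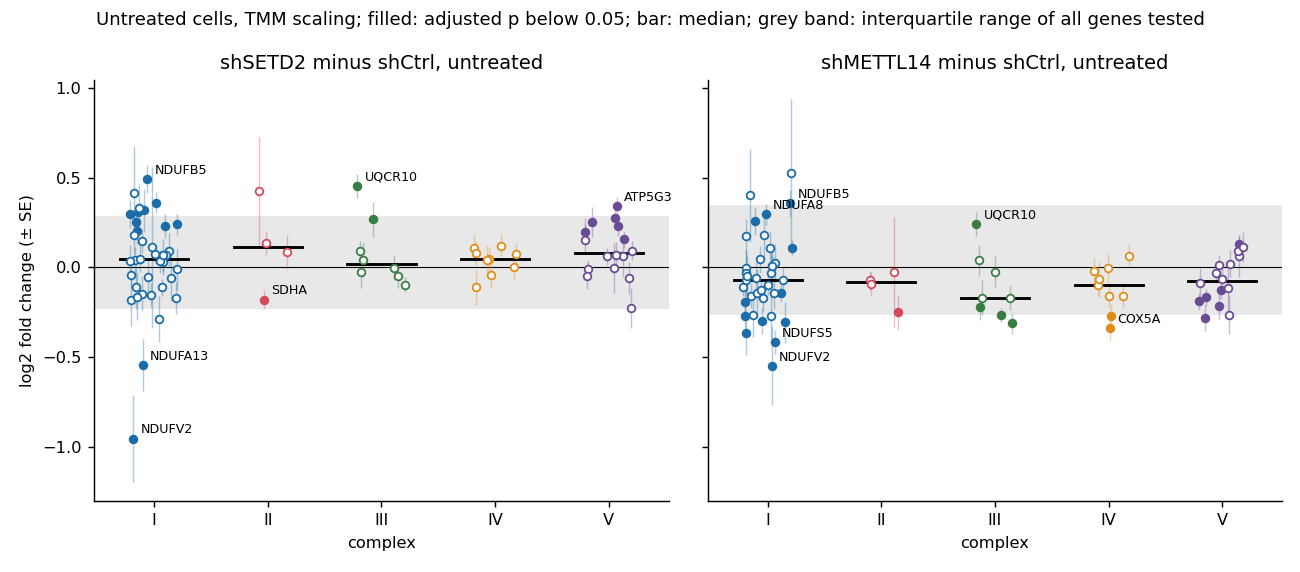
log2 fold change of each member in untreated shSETD2 and shMETTL14 cells against shCtrl (y axis, with SE) by complex (x axis); filled points passed the adjusted p of 0.05, bars are medians and the grey band spans the interquartile range of all 14887 genes. Most members lie inside the band, and both panels share the shCtrl libraries.

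Set against each other, 32 members were higher and 1 lower in shSETD2 than in shMETTL14 cells, against 29.2% of tested genes higher, 23% lower and 52.2% either. This comparison reuses the untreated libraries of those above. NDUFC1, a small accessory subunit, differed by 0.58 ± 0.12, UQCRH by 0.44 ± 0.10, NDUFA4 by 0.41 ± 0.05 and UQCRB by 0.40 ± 0.06. NDUFA13 was the member that was lower (-0.40 ± 0.14). The direction rests on the scaling: by library size alone 7 were higher and 18 lower, and the median of all genes moved from 0.03 to -0.18. Under all 4 scalings 7 remained higher (ATP5F1, COX5A, NDUFA12, NDUFA4, NDUFA6, NDUFC1, UQCRB).

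**Figure D5:**
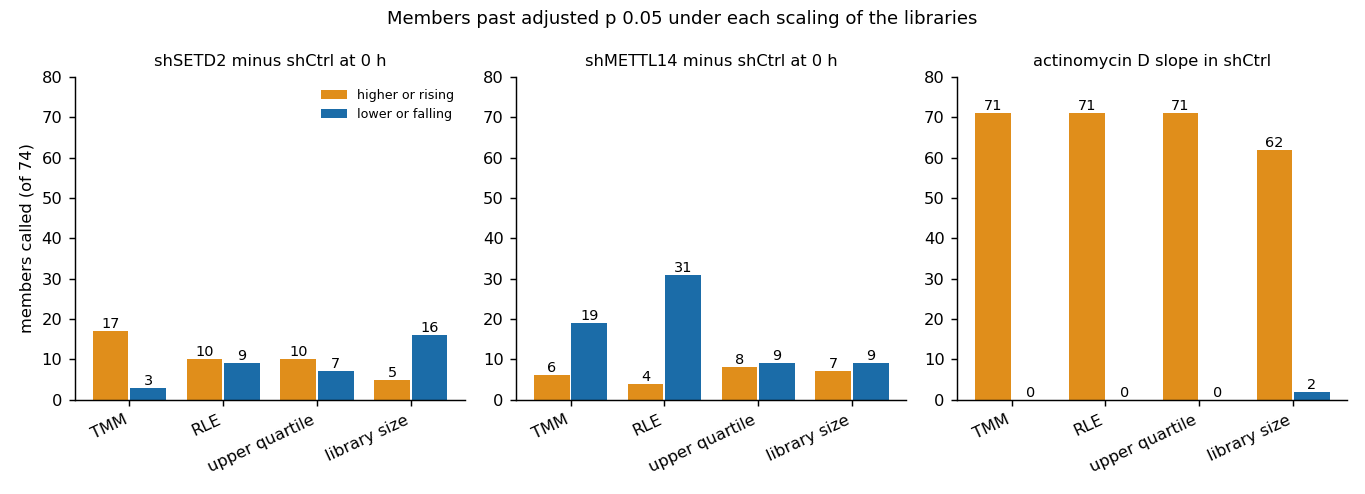
Members past the adjusted p of 0.05 (y axis, of 74) under 4 scalings of the libraries (x axis), for untreated shSETD2 and shMETTL14 cells against shCtrl and for the slope in shCtrl; orange bars are higher or rising, blue bars lower or falling. The untreated splits change with the scaling, from 17 and 3 to 5 and 16 for shSETD2, while 62 to 71 members rise in shCtrl under each.

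A list of respiratory chain proteins outside the name rule had 11 genes, of which 10 had a row and 8 passed the low-count filter. The 8 were subunits (COX4I1, CYC1, NDUFAB1, USMG5, C14orf2), the supercomplex factor COX7A2L, the ATP synthase inhibitor ATPIF1 and the electron carrier cytochrome c (CYCS). All 8 tested rose in each line under the drug, against 37.8% of tested genes in shCtrl, 34.2% in shSETD2 and 38.2% in shMETTL14, with a median slope of 0.124 in shCtrl, and COX4I1, the largest nuclear-encoded subunit of complex IV, had 0.150 ± 0.009. At 0 h in shMETTL14 1 was higher and 5 lower (23.1% and 25.1% of tested genes), among them CYC1, cytochrome c1 of complex III, at -0.42 ± 0.10.

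Assembly factors, which build the complexes without staying in them, were called in both directions. Against 37.8% of tested genes rising and 33.2% falling, in shCtrl 9 of 15 complex I factors rose and 4 fell, as did 6 and 2 of 10 for complexes II and III, 15 and 6 of 22 for complex IV, and 3 and 1 of 4 for complex V. SURF1 of complex IV rose by 0.173 ± 0.013 log2 per h and ATPAF1 of complex V by 0.160 ± 0.009. COA7 (-0.506 ± 0.015) and SCO2 (-0.487 ± 0.028), a copper chaperone, both of complex IV assembly, fell, as did TMEM186 of complex I (-0.378 ± 0.021) and SDHAF1 of complex II (-0.391 ± 0.026).

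Of 12 regulators of the set 10 fell in shCtrl, against 33.2% of tested genes, and 1 rose (TFAM, which packages mitochondrial DNA, named after its value was seen, 0.076 ± 0.022). NRF1 fell by 0.348 ± 0.020 log2 per h and PPRC1, a coactivator of NRF1, by 0.404 ± 0.015. At 0 h in shMETTL14, 8 of the 12 were lower and 1 higher, against 25.1% and 23.1% of tested genes, including TFB2M, a mitochondrial transcription factor (-1.03 ± 0.10), and PPRC1 (-0.81 ± 0.08).

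Among the mitochondrially encoded partners, 9 of 13 fell under the drug and 1 rose in shCtrl (33.2% and 37.8% of tested genes), with a median slope of -0.035: MT-CYB, cytochrome b of complex III, fell by 0.475 ± 0.007 log2 per h, while MT-CO1, the catalytic subunit of complex IV, named after its value was seen, rose by 0.064 ± 0.005. In shSETD2 12 fell and 1 rose (36.2% and 34.2% of tested genes), and in shMETTL14 7 fell and 3 rose (34.8% and 38.2%). In untreated shMETTL14 cells 2 were higher and 3 lower than in shCtrl (23.1% and 25.1%). In untreated shSETD2 cells 12 of 13 were higher and none lower (21.6% and 18.9%), with a median of 0.50 log2 and MT-CYB at 0.86 ± 0.04.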

How the data were processed

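RNA of 24 HepG2 libraries (12 groups of line and time, 2 each, taken from the sample titles) was analysed. The counts were used as the authors deposited them. The tools named in the submitters' processing notes include HTSeq 0.6.1p1, cutadapt and TopHat, with the build GRCh37. The sources used here do not give settings, annotation or strand use. The RPKM values deposited beside them equal count per exon length and library total. The authors deposited half-lives, in hours, for each gene in each line. Per the series' design text these compare expression at 1, 3 and 6 h with untreated cells. 0 ERCC rows are in the table.

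The test was edgeR 4.0.16 under R 4.3.3 (TMM, filterByExpr, glmQLFit with robust, glmQLFTest, two-sided, 12 residual degrees of freedom, biological coefficient of variation 5.04%). Adjusted p in all texts are edgeR's, Benjamini-Hochberg over 14887 genes, unless another tool is named. Alternatives were RLE, upper-quartile and library-size scaling, no filter or a mean of at least 5 CPM, DESeq2 1.42.0, limma 3.58.1 on log2(RPKM + 0.1) and log2(RPKM + 1), a replicate block, only the groups compared, 6 h minus 0 h, and each library left out. The procedure was tested on simulated data, with the same spread for every gene. It recovered 14% of slope differences of 0.05 log2 per h and 70% of those of 0.1. At 0 h it recovered 54% of 1.25-fold and 96% of 1.5-fold differences. Differences of the smaller sizes can thus be missed. Counts give 3 reads as 0.0955 to 0.164 CPM.

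Named members are a panel by role, the up to 4 largest called rises and falls per comparison, the highest RPKM per complex and, from each of 7 pathway lists, up to 3 genes. Members and lists were chosen with earlier results of these data known. Promoters came from RefSeq GRCh38.p14 and lengths from GENCODE v29. Protein identity between paralogs was not analysed here. The values of 1 gene of the panel are not reported here.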

Additional observations from a re-analysis of the deposited data

Results flagged for a closer look

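The slope under actinomycin D differed between shSETD2 and shCtrl by the interaction test (edgeR, adjusted p below 0.05) for 5 members. All 5 were lower, against 6.45% of tested genes lower and 1.49% higher. The differences in log2 per h were -0.0707 for NDUFV3, -0.0649 for NDUFB3, -0.0593 for NDUFB5, -0.049 for NDUFA12 and -0.0484 for ATP5H. Each was smaller in size, with the same sign, and was not called under RLE, upper-quartile and library-size scaling.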

How the results depend on the processing

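For the slopes under actinomycin D, 63 to 72 members were called in each line under all settings tried, counting rises and falls together. Leaving out 1 library gave 68 to 71 such calls in shCtrl, 67 to 70 in shSETD2 and 68 to 71 in shMETTL14. Apart from the fits with a library left out, 62, 62 and 60 members were called as rising under every setting in shCtrl, shSETD2 and shMETTL14. At 0 h, leaving out 1 library gave 13 to 14 calls for shSETD2, 24 to 38 for shMETTL14 and 22 to 30 between the knockdown lines. Fitting only the compared groups gave 32 calls for shSETD2 and 38 for shMETTL14, and library-size scaling gave 16 for shMETTL14. For the slope difference of shSETD2, RLE, library-size and upper-quartile scaling gave 0 calls each, the compared groups alone 1, DESeq2 1, limma 1 with either pseudocount, and leaving out 1 library 1 to 19. For that of shMETTL14, library-size scaling gave 1, the stricter filter 7, the compared groups alone 13, limma 2 with either pseudocount, and leaving out 1 library 0 to 6. The cause was not tested, and the share of all tested genes called in each setting is not given here.

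Taken over all genes tested, the replicate numbers showed little sign of pairing. Over 66 pairs of same-numbered libraries of different groups the correlation of deviations ran from -0.084 to 0.20 (median 0.018). Single members could still share a replicate difference. At 6 h NDUFC2 had, replicate 1 first, 45.6 and 68.6 CPM in shCtrl, 26.8 and 48.3 in shSETD2 and 51.5 and 68.2 in shMETTL14. How many members did so was not counted, and pairing was not tested further. With a replicate block the count for the slope difference of shSETD2 was 9 and for that of shMETTL14 1. The block gave 26, 33 and 37 calls at 0 h, for shSETD2, shMETTL14 and between them, and 71, 69 and 71 for the slopes.

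Some named values changed sign, including values called in the main comparison. At 0 h in shMETTL14, NDUFS1 was between -0.0024 and 0.021 log2 with a library left out (-0.00050 without shMETTL14 replicate 2). Between the knockdown lines, library-size scaling gave -0.038 for COX7A2, -9.0e-05 for UQCR10 and -0.041 for UQCRC2, and limma with pseudocounts of 0.1 and 1 gave -0.035 and -0.034 for COX7A2 and -0.041 and -0.040 for UQCRC2. The shMETTL14 slopes of NDUFA8 were -0.0052, -0.00499 and -0.0048 and those of NDUFS1 -0.00023, -0.000190 and -0.00018 log2 per h in the same settings. The higher and lower calls split as 10 and 8 for shSETD2 at 0 h with the stricter filter and 9 and 7 with DESeq2, 4 and 29 for shMETTL14 with DESeq2, and 18 and 6 between the knockdown lines with the upper quartile. Depth limits NDUFA7 and NDUFV2.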
